A study of Mus musculus with 4 samples.

Results

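The genes described here are the DNA repair genes of a microarray comparison in mouse colon, grouped by repair pathway. They were chosen by name: every array probe whose listed gene was Brca1 or Brca2, a Rad, Fanc, Msh, Mlh, Xrcc, Ercc or numbered Parp gene, Lig1, Lig3 or Lig4, or Blm, Exo1, Atm, Atr, Chek1 or Chek2. This gave 71 genes, read by 124 probes, of 27817 genes named on the array. Of these 71, 56 were placed in 7 repair or checkpoint classes, and the other 15 were grouped as having another main role. That grouping does not mean that they have no part in repair, and it takes in Rad18, a ubiquitin ligase for PCNA. No measured value was used to choose them.

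Cells were sorted from colonic crypts of adult mice that carry the Lgr5_EGFP-ires-CreERT2 knockin allele, which makes GFP wherever the promoter of Lgr5 is active. Lgr5 encodes an R-spondin receptor that marks stem cells at the crypt base. One RNA came from cells positive for this GFP and is labelled Lgr5-GFP. The other came from cells of the same kind of colon sorted with a PE-conjugated antibody for a high level of CD24, a surface protein, to obtain a subset of goblet cells, and is labelled CD24hi. Both RNAs were hybridised together on 4 two-colour arrays, 2 for each of 2 replicates, the second with the dyes exchanged (the dye swap). Whether the replicates are separate mice is not stated in the labels, and p-values therefore cover the spread between these samples alone, which may be technical.

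Cells repair DNA by several routes. Homologous recombination copies a broken end from the sister chromatid, the Fanconi anaemia pathway unhooks crosslinks between strands ahead of it, and mismatch repair removes errors left by the replication fork, so these routes act mainly while DNA is being copied or soon after. Nucleotide excision repair, base excision repair and end joining also serve cells that no longer divide. In the crypt, dividing stem and progenitor cells lie below the differentiated cells of the surface.

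All ratios are log2 of the RNA labelled Lgr5-GFP over the RNA labelled CD24hi, so a negative value means lower in the RNA labelled Lgr5-GFP. The markers ran against these labels. Lgr5 itself was at -3.41 ± 0.29 (SD, n = 2 replicates; limma, adjusted p = 0.000663), and Cd24a, which encodes CD24, was at 2.12 ± 0.30 (limma, adjusted p = 0.000803). Smoc2, another gene of the crypt base, was at -2.78 ± 0.39. Muc2, the secreted mucin of goblet cells, was at 3.76 ± 0.58, and Retnlb, a secreted goblet cell protein, at 4.05 ± 0.88. Goblet cell genes mostly had positive ratios, with 12 of 16 tested called higher and 1 called lower, while 8 of 11 crypt base stem cell genes were called lower and 1 higher. Directions below follow the labels, so if the labels were exchanged, each would turn. The dye swap of replicate 1 also stood apart: 75.3% of its spots were marked as outliers by the scanner software and left out, against 0.231% to 0.512% on the other arrays, and 48 of the 64 repair genes tested had no value there. Its median signals were 4377 and 1358 in the RNAs labelled Lgr5-GFP and CD24hi, against 94.2 to 197 in either RNA on the other arrays.

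Most of the repair genes that differed were lower in the RNA labelled Lgr5-GFP. Of the 64 genes bright enough to test, limma called 31 lower and 4 higher (adjusted p under 0.05), and 29 were not called. A gene could pass the filter through 1 RNA alone, which favours a ratio toward the brighter RNA. Of the 53 above background in both RNAs, 24 were called lower and 4 higher, in a fit of 11823 such genes with 3233 lower and 2991 higher. Among all 14629 genes tested, 25.8% were called lower and 22% higher. The median log2 ratio was -0.42 over the 64 repair genes and -0.07 over all genes. In the 7 repair and checkpoint classes alone, 27 of 53 were lower and 2 higher, with a median of -0.57. At least 2-fold lower in both replicates were 15 of the 64, against 6.11% of all genes tested. Of the 31 called lower, 29 were below 0 on every array with a value, and the exceptions, Brca1 and Chek1, were above 0 only on the dye swap of replicate 1. In bulk RNA, fewer cells of a type and less RNA per cell cannot be told apart.

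**Figure D1:**
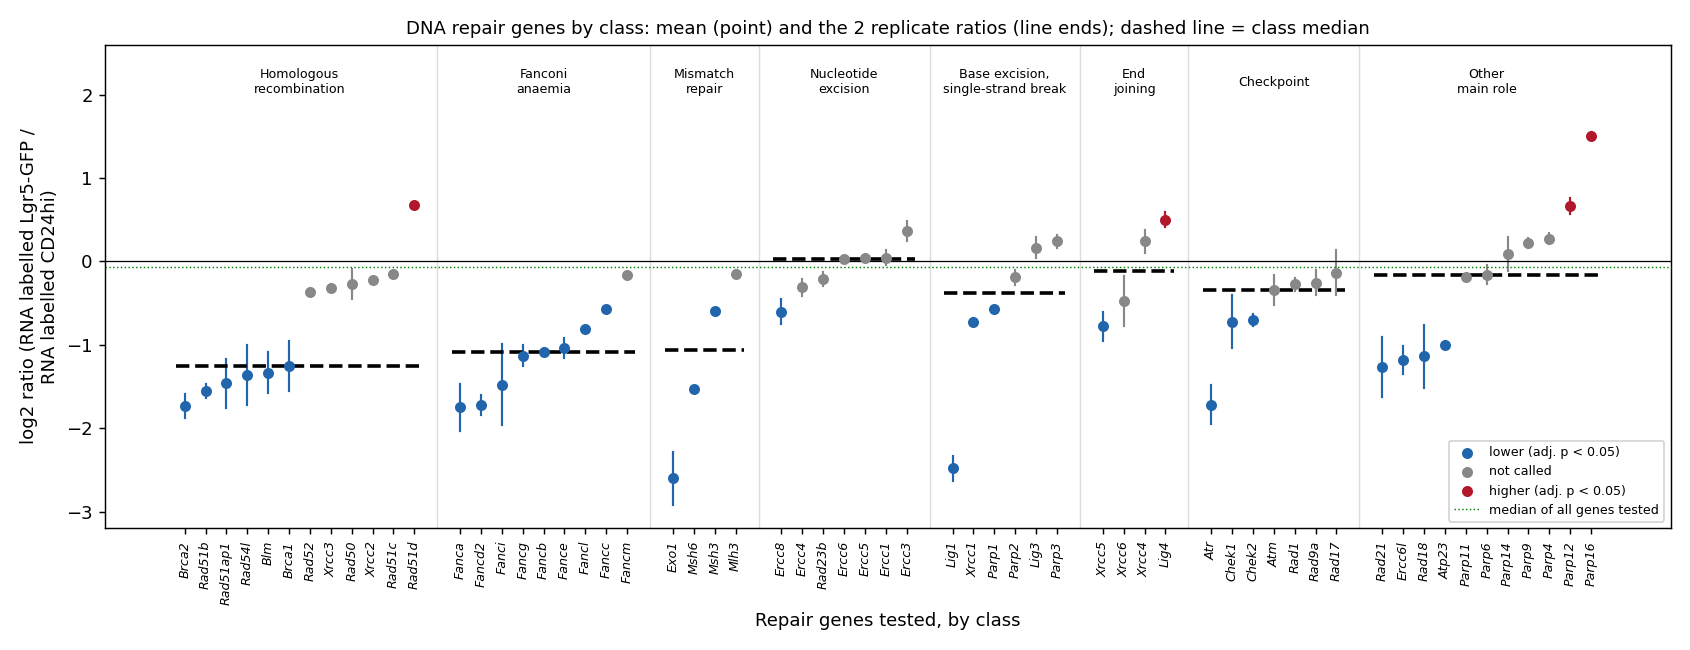
Each point is the mean log2 ratio (vertical axis, the RNA labelled Lgr5-GFP as numerator) of 1 repair gene (60 of the 64 tested are drawn), the line through it ends at its 2 replicate ratios, and colour gives the limma call. Dashed lines are medians of all tested genes of a class: homologous recombination, Fanconi anaemia and mismatch repair genes have medians below -1, while the nucleotide excision median is 0.031.

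In homologous recombination 7 of 13 genes were called lower and 1 higher, with a class median of -1.25. Over the 8 genes above background in both RNAs the median was -0.81, against -1.08 over 7 such Fanconi anaemia genes and -1.06 over 6 mismatch repair genes, so the rank of the class rests on genes that were dim on at least 1 array in the RNA labelled Lgr5-GFP. Brca2, the breast cancer gene that acts in strand exchange, was at -1.88, -1.44 and -1.75 on the 3 arrays with a value, in the order first array of replicate 1, then first array and dye swap of replicate 2. In the RNA labelled Lgr5-GFP its probe was on no array well above background, so it passed the filter through the RNA labelled CD24hi alone, and only a bound of at least 3.34-fold lower can be given (limma, adjusted p = 0.000894). Such a bound sets the mean signal of the brighter RNA against that of the dimmer one, taken per array as the higher of its own signal and the lowest signal well above background. Rad51b, which acts in a complex with Rad51c, Rad51d and Xrcc2, passed the filter in the same way and was at least 2.94-fold lower (limma, adjusted p = 0.000943). For both genes the bound equals the fold of the measured ratio, since the floor did not change it, so it is no more cautious than that ratio. For both, too, the filter admits a negative ratio more readily than one near 0, and their p-values are no separate support for it. Rad54l, Fancd2, Chek1, Chek2 and Ercc6l were well above background on only some arrays in the RNA labelled Lgr5-GFP. They too passed through the RNA labelled CD24hi alone, so the same limit holds for their calls.

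Of the other genes called lower in this class, Rad51ap1, a cofactor of strand exchange, was at -1.46 ± 0.42, Rad54l, a motor that helps strand exchange, at -1.36 ± 0.51, and Blm, the helicase of Bloom syndrome, at -1.33 ± 0.35. Brca1, which promotes resection of the break, was at -2.13, -1.498 and -1.62 on 3 arrays and at 0.22 on the dye swap of replicate 1, a mean of -1.25 ± 0.43. That last array was the only one of the 4 above 0 for Brca1. Without the first array of replicate 1 the ratio was -0.67 and the call was lost (limma, adjusted p = 0.224).

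Rad51d ran the other way. It was at 0.64, 0.70 and 0.69 on the 3 arrays with a value, a mean of 0.67 ± 0.038 or 1.59-fold higher (limma, adjusted p = 0.00768), and its 2 further kept probes were at 0.41 and 0.37. The call was lost with the scanner software's processed signals, the series table, median centring or marked spots kept, and without the first array of replicate 1 (0.35; limma, adjusted p = 0.629), although the ratio stayed above 0 in each of them.

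Rad52 (-0.36; limma, adjusted p = 0.0547), Xrcc3 (-0.32), Rad50 (-0.27), Xrcc2 (-0.22) and Rad51c (-0.15) were not called. With the 2 arrays of a replicate as a block, Rad52 (-0.35; limma, adjusted p = 0.0237) and Xrcc3 (-0.32; limma, adjusted p = 0.0323) were called lower. Xrcc2 was dim in the RNA labelled Lgr5-GFP, with a bound of 1.16-fold lower that equals the fold of its measured ratio. Rad51c was nearly as dim there, and its probe stood clear of background on only 1 array. Whether the genes of these small complexes shared 1 direction cannot be told from their calls. Rad51b was called lower under the filter limit given above, and the higher call of Rad51d was lost under several treatments. With Rad51c and Xrcc2 so dim, a place between those genes is not shown for them. Rad51d and Xrcc3 were bright in both RNAs. Their ratios lay on opposite sides of 0 under every treatment, but Xrcc3 was not called in the main fit.

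Among 25 further recombination genes on the array that the name pattern does not take, 12 were lower and 1 higher, with a median of -0.39. Hells, a chromatin remodeller, was at -2.06 ± 0.31, and Rpa1, the large subunit of the single-strand binding protein RPA, at -1.49 ± 0.062. Mus81, a nuclease that cuts joined DNA molecules, was the exception at 0.47 ± 0.048 (limma, adjusted p = 0.0242).

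The Fanconi anaemia class had the largest share of called genes among the member classes, with 8 of 9 tested genes lower and none higher (median -1.08). Fanca, a subunit of the core ubiquitin ligase, was measured on every array, at -2.25 and -1.82 in replicate 1 and -1.40 and -1.54 in replicate 2, the dye swap second each time (mean -1.75 ± 0.40, 3.36-fold lower; limma, adjusted p = 0.00139). Fancd2 and Fanci encode the pair of proteins that this ligase marks with ubiquitin. Fancd2 was at -1.84, -1.39 and -1.80 (mean -1.72 ± 0.17; limma, adjusted p = 0.000862), and Fanci averaged -1.48 ± 0.69, with replicate 1 at -1.97 and replicate 2 at -0.99. In the RNA labelled Lgr5-GFP, Fancd2 was above background on 2 of 3 arrays, so it passed the filter through the other RNA alone.

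The core complex genes Fancg (-1.13 ± 0.18), Fancb (-1.08 ± 0.069), Fance (-1.04 ± 0.17), Fancl (-0.81 ± 0.0011), which holds the ligase activity, and Fancc (-0.57 ± 0.012) were also called lower. Another kept probe of Fancg was called higher, as described below. Its lower call, and its place in the class count, thus rest on the choice of the brightest kept probe. Fancm, the helicase-like protein that brings the core complex to DNA, was at -0.16 ± 0.021 and not called. Fancf stayed dim on all arrays in either RNA.

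Further genes of the pathway divided. Of 7 tested, 3 were lower and 2 higher. Ube2t, the enzyme that passes ubiquitin to FANCD2 and FANCI, was at -2.38 ± 0.42 and Cenps at -1.41 ± 0.37. Usp1, which removes that ubiquitin, was at -1.32 ± 0.11, while Wdr48, its activating partner, was higher at 0.77 ± 0.035 (limma, adjusted p = 0.00497), as was Faap100 at 0.67 ± 0.38.

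In mismatch repair, 4 of 6 genes were lower and none higher (median -1.06), and the nuclease and genes of the recognition step were among those called. Exo1, the exonuclease that removes the faulty strand, had the lowest ratio of all 64 repair genes tested. It was at -2.92, -2.23 and -2.33 on the 3 arrays with a value, a mean of -2.60 ± 0.45 or 6.06-fold lower (limma, adjusted p = 0.000779).

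Msh6, a subunit of the main mismatch sensor, was nearly alike on every array, at -1.505, -1.504, -1.47 and -1.62 (mean -1.53 ± 0.031; limma, adjusted p = 0.000918). Msh3, which replaces Msh6 in the sensor of larger loops, was lower by less (-0.60 ± 0.018; limma, adjusted p = 0.0111).

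Mlh3, which acts after recognition, was at -0.15 ± 0.065 and not called. All 11 further genes of the pathway that were tested were lower (median -1.14), which are largely parts of the replication fork. Rfc4, of the complex that loads the sliding clamp, was at -2.30 ± 0.13 and Pcna, the clamp itself, at -2.05 ± 0.19.

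Nucleotide excision repair had the highest median of the classes, at 0.031 on the log2 scale. Only 1 of 8 genes was called, and it was lower (12.5%, against 25.8% of all genes tested). By replicate the class median was -0.17 and 0.03, while that of end joining was -0.33 and 0.098. In replicate 2 end joining was thus the higher of these classes. Ercc8, a transcription-coupled repair factor whose loss causes Cockayne syndrome, was lower, at -0.75, -0.37 and -0.53 (mean -0.60 ± 0.21; limma, adjusted p = 0.0163). Ercc6, its partner in that route, was at 0.025 ± 0.026, Ercc1 and Ercc4, which form the nuclease on the 5′ side of the lesion, at 0.046 ± 0.12 and -0.31 ± 0.15, and Ercc5, the nuclease on the other side, at 0.038 ± 0.03. None of these 4 was called.

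Ercc3, a helicase of the TFIIH complex that opens DNA, was at 0.37 ± 0.16 (limma, adjusted p = 0.0652), and was called higher with the replicate block (0.41; limma, adjusted p = 0.0192). Rad23b, which stabilises the damage sensor, was at -0.21 ± 0.12. Ercc2 was above background on 3 of 4 arrays in each RNA and did not pass the filter.

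The flat class median did not extend to the whole pathway. Of 15 further nucleotide excision genes, 7 were lower and 1 higher (median -0.43). Ddb2, a sensor of ultraviolet damage, was at -0.80 ± 0.0034, and its partner Ddb1 was higher at 1.17 ± 0.11 (limma, adjusted p = 0.00173).

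Base excision and single-strand break repair had 3 of 6 genes lower (50%, against 25.8% of all genes tested) and a median of -0.38. Lig1, the ligase that joins Okazaki fragments as well as long repair patches, was far below the rest of its class, at -2.63, -2.29 and -2.37 (mean -2.48 ± 0.21, 5.58-fold lower; limma, adjusted p = 0.000669). The scaffold Xrcc1 was at -0.68, -0.88 and -0.67 (mean -0.73 ± 0.069; limma, adjusted p = 0.00621), and Parp1, the main sensor of strand breaks, at -0.57 ± 0.0089. Lig3, the ligase that partners XRCC1, was at 0.17 ± 0.18, Parp2 at -0.19 ± 0.13 and Parp3 at 0.24 ± 0.11, with no call. Of 19 further genes of the pathway, 9 were lower and none higher (median -0.36), among them the glycosylase Neil3 (-1.81 ± 0.29) and the endonuclease Apex1 (-1.72 ± 0.0032). On its arrays Apex1 was at -1.71, -1.51 and -1.93, a spread that the SD over replicate ratios does not show.

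Calls differed among the 3 DNA ligases: Lig1 was called lower, Lig3 was not called, and Lig4 was called higher. Lig3 and Lig4 both had positive ratios and were not compared with each other, so a difference between them is not shown. Lig4, which seals breaks in non-homologous end joining, was at 0.42 and 0.42 in replicate 1 and 0.48 and 0.69 in replicate 2 (mean 0.50 ± 0.12, 1.42-fold higher; limma, adjusted p = 0.0222). All 4 arrays were above 0. Its second kept probe was at 0.59. The call was lost with the series table, median centring or marked spots kept, and without the first array of replicate 1 (limma, adjusted p = 0.413).

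Xrcc5, the larger Ku subunit that binds broken ends, was lower, at -0.95, -0.56 and -0.66 (mean -0.78 ± 0.24; limma, adjusted p = 0.00787). Its partner Xrcc6 averaged -0.48 ± 0.42 and was not called (limma, adjusted p = 0.0724). Its replicates were at -0.77 and -0.18. Xrcc4, the partner of Lig4, was at 0.24 ± 0.19. Of 8 further end-joining genes 2 were lower, Aplf (-0.94 ± 0.19) and Polm (-0.67 ± 0.49), and none higher (median -0.17). The share called lower was 25% of these 8 and 25% of the 4 members, near the 25.8% of all genes tested.

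Among the checkpoint genes, 3 of 7 were lower (42.9%, against 25.8% of all genes tested), and these were kinases. Atr, the kinase that answers stalled forks, was at -1.95, -1.30 and -1.66 (mean -1.72 ± 0.34, 3.29-fold lower; limma, adjusted p = 0.00122). Chek1, its effector, was at -1.06, -1.04 and -1.05 but at 0.26 on the dye swap of replicate 1 (mean -0.72 ± 0.46; limma, adjusted p = 0.0237), and its second kept probe averaged -1.48. Leaving out the first array of replicate 1 ended the Chek1 call (-0.39; limma, adjusted p = 0.569), as did signals with no background subtracted (-0.51; limma, adjusted p = 0.0635). Chek2, the effector of ATM, was at -0.70 ± 0.10 (limma, adjusted p = 0.00742). In the RNA labelled Lgr5-GFP, Chek1 was above background on 2 of 4 arrays and Chek2 on 2 of 3. Both passed the filter through the other RNA alone.

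Atm, the kinase that answers double-strand breaks, was at -0.34 ± 0.26 and not called (limma, adjusted p = 0.0999). The 9-1-1 clamp genes Rad1 (-0.28 ± 0.12) and Rad9a (-0.25 ± 0.21) and the clamp loader Rad17 (-0.13 ± 0.38) were not called either, and Rad9b stayed dim in both RNAs on all arrays. Of 10 further checkpoint genes, 6 were lower and none higher (median -0.86). Timeless (-2.28 ± 0.18) and Tipin (-1.92 ± 0.26), a pair that rides with the fork, were the lowest.

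**Figure D2:**
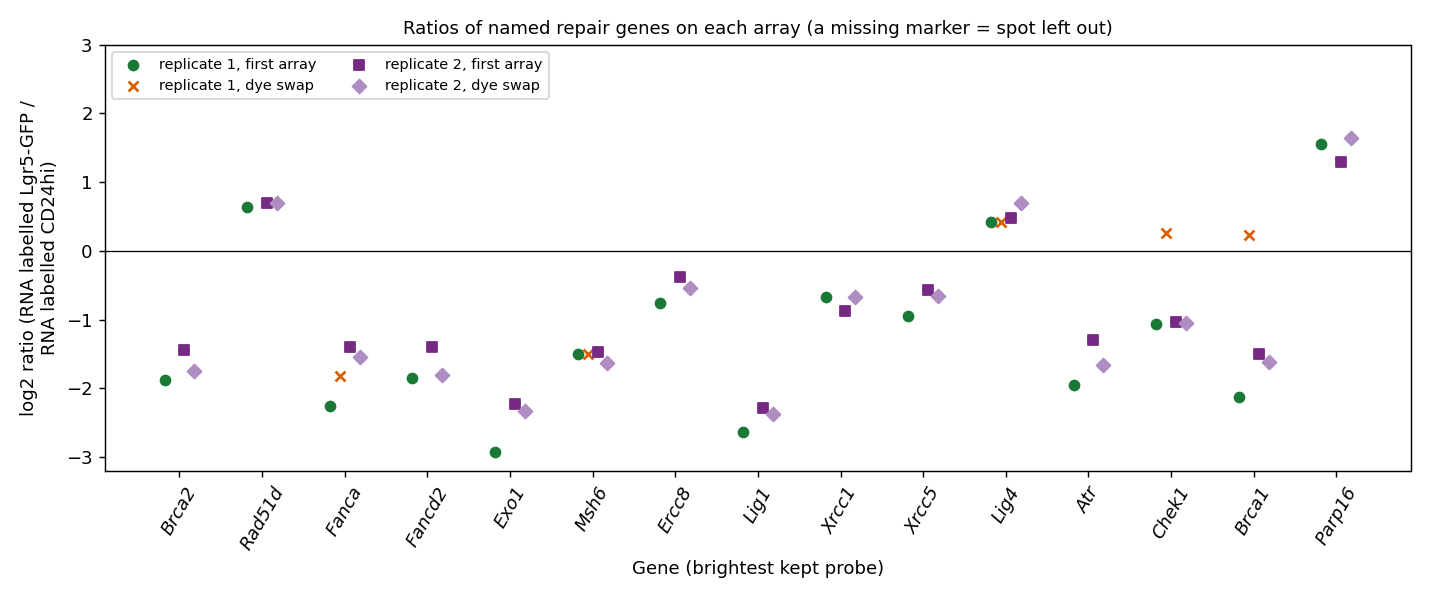
The markers give the log2 ratio (vertical axis) of 15 named repair genes on each of the 4 arrays. The crosses, from the dye swap of replicate 1, lie apart from the other arrays for Chek1 (0.26) and Brca1 (0.22) and close to them for Msh6 and Lig4.

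The 15 genes grouped as having another main role had a median of -0.16. Of 11 tested, 4 were lower and 2 higher (36.4% and 18.2%, against 25.8% and 22% of all genes tested). Those called lower were Rad21, a cohesin subunit (-1.27 ± 0.50), Ercc6l, a helicase of mitotic chromosome bridges (-1.18 ± 0.23), Rad18, a ubiquitin ligase for PCNA (-1.14 ± 0.54), and Atp23, listed on the array as Xrcc6bp1 (-1.004 ± 0.065). Rad21 was at -1.26 and -1.98 in replicate 1 and -0.86 and -0.96 in replicate 2.

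Parp16, an enzyme of the endoplasmic reticulum membrane, was the highest of all repair-named genes, at 1.55, 1.29 and 1.65 (mean 1.51 ± 0.061, 2.85-fold higher; limma, adjusted p = 0.000943). Parp12, an interferon-inducible family member, was at 0.77, 0.49 and 0.64 (mean 0.67 ± 0.14; limma, adjusted p = 0.00965). Both were above 0 on every array with a value. Parp4, Parp6, Parp9, Parp11 and Parp14 lay between -0.18 and 0.27 and were not called, although Parp4 was called higher with the replicate block (0.30; limma, adjusted p = 0.0385). Within the Parp family the only gene called lower was thus Parp1. Msh4 and Msh5, which act in meiosis, and Parp8 and Rad54l2 did not pass the filter, as none was above background on all arrays in either RNA.

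Markers of dividing cells were nearly all lower. Of 29 proliferation genes, 28 were lower in the RNA labelled Lgr5-GFP, with a median of -2.28 and a range of -3.18 to -0.37. Mki67, a protein of cycling cells, was at -3.03 ± 0.62, and Birc5, of the mitotic spindle, at -3.18 ± 0.54. The part of cell division in the repair ratios was not tested. Of 11 genes of translesion synthesis, which let the fork pass damage, 2 were lower (18.2%) and 3 higher (27.3%), with a median of 0.12. Among all genes tested these shares were 25.8% and 22%. Poli was at -1.30 ± 0.12, Rev3l at -0.77 ± 0.056 and Polk at 0.67 ± 0.22. Rad18, grouped above by another main role, was not in this list. Leukocyte markers were mostly dim, with 3 of 12 tested and none called (medians of -0.21 and -0.11 in the replicates), and of 10 stromal and endothelial markers 3 were tested and 1, Col1a2 (0.44 ± 0.16), was called higher.

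**Figure D3:**
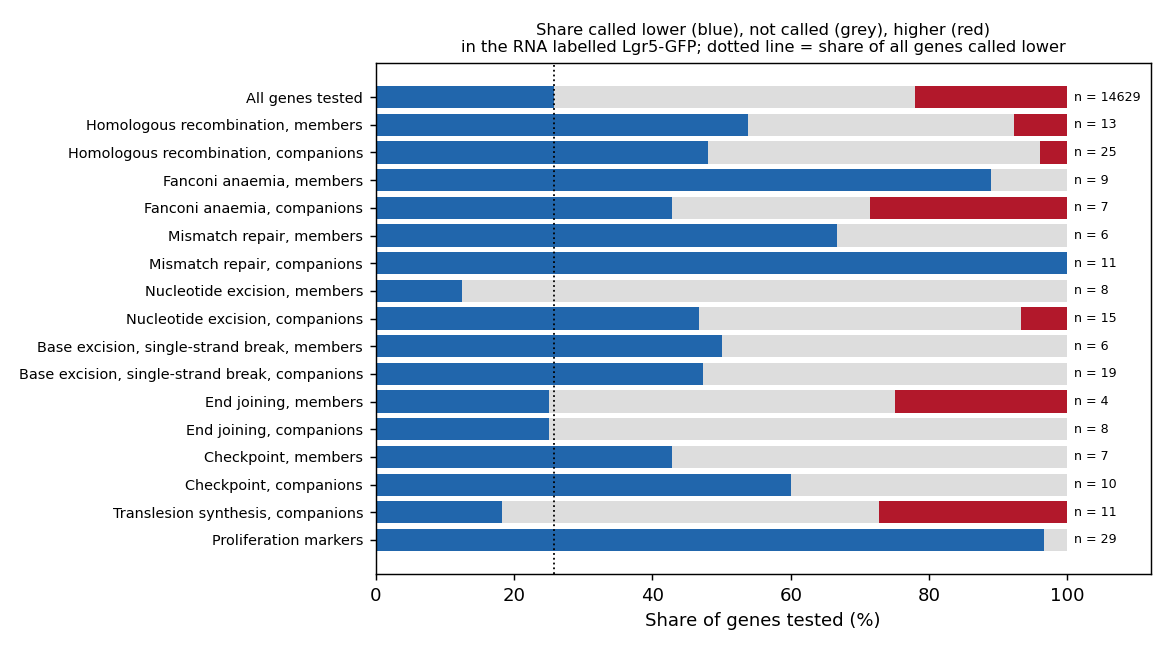
Bars give the share of tested genes (horizontal axis, %) called lower, not called and called higher in the RNA labelled Lgr5-GFP for each repair class, for further genes of the same pathway that the name pattern does not take (companions) and for proliferation markers. Fanconi anaemia members (8 of 9) and mismatch repair companions (11 of 11) reach the largest shares called lower of the repair lists, and nucleotide excision members (1 of 8) lie left of the dotted line at 25.8%.

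The order of the classes held under most treatments of the signal. With every treatment that used all arrays, the medians of homologous recombination, Fanconi anaemia and mismatch repair lay below those of the other 4 classes of repair and checkpoint genes. With the scanner software's processed signals the median of homologous recombination fell further, to -1.99, and of nucleotide excision repair to -0.12. The exception was the fit without the first array of replicate 1, in which only 22 repair genes could be tested and homologous recombination, with 3 genes left, had a median of -0.20. That fit also ended the calls of Parp1 and Msh3, and keeping marked spots ended those of Fancc, Chek2, Ercc8 and Parp12. With the background correction fitted on all spots, none of the 14629 genes passed limma's adjusted threshold (0 called, against 5265 with an unadjusted p under 0.05), and so 0 repair genes, with medians of -0.89 for homologous recombination, -0.84 for the Fanconi anaemia pathway and -0.82 for mismatch repair. That fit differs only in the spots with a non-uniform background, and the choice to leave them out before it was made with this result known.

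Where a gene had several probes, most told the same story. Of 22 repair genes with 2 or more probes that passed the filter, 2 had probes that disagreed, which means calls in opposite directions or ratios at least 1 apart on the log2 scale, the same way in both replicates. The share among all 4563 genes with such probes was 4.95%. The probes of these genes, and of Atr as a case that differs only once dim probes are counted, are shown to let their targets be traced. They are 60 bases long, with positions in build mm9 as the files list them.

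The following are the probes of Atr (chromosome 9, plus strand) in order along the gene, starting at bases 7128, 7714 and 7966 of the listed transcript.
Atr at chr9:95841401-95843032: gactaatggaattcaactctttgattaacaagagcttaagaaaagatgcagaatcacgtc
Atr at chr9:95847601-95847660: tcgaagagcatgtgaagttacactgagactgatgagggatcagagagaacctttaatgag
Atr at chr9:95851956-95852015: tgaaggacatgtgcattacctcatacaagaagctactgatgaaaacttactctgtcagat
These are the Fancg probes (chromosome 4, minus strand) that start at bases 49 and 1502 of the listed transcript, and the more 5′ of the Fancd2 probes (chromosome 6, plus strand), which starts at base 4147.
Fancg at chr4:43022874-43022933: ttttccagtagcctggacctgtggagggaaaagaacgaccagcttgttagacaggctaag
Fancg at chr4:43016751-43017436: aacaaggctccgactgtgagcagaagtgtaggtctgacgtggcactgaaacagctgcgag
Fancd2 at chr6:113541170-113541229: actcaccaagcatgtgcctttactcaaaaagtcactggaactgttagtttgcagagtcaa
The positions of the first Atr probe and the second Fancg probe span more than 60 bases in the genome.

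Fancg had probes called in opposite directions. The probe at base 49 had ratios above 0, of 1.80 and 0.47 in replicate 1 and 1.87 and 1.67 in replicate 2, the dye swap second each time (mean 1.45; limma over 20617 kept probes, adjusted p = 0.00237). The probe at chr4:43015236-43015295, which gives the gene its value above, starts at base 2893 of a longer listed cDNA and was at -1.001, -1.23 and -1.28 on 3 arrays (mean -1.13; limma, adjusted p = 0.00198). Of all kept probes, 22.5% were called higher and 23.8% lower. The probe between them, at base 1502, was at 0.00 on average and above background on only 2 of 3 arrays in the RNA labelled Lgr5-GFP and 1 of 3 in the other. The first and the middle probe have at least 1 forward frame with no stop codon, and the last has a stop in all 3. The direction of Fancg thus depends on the probe, and the mean of its kept probes was 0.16.

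Fancd2 met the rule through a probe that was dim in 1 RNA. Its more 3′ probe was at -1.72 and the one printed above at -0.46 (limma over kept probes, adjusted p = 0.029). The latter was above background in the RNA labelled CD24hi on all 3 arrays with a value and on none of them in the RNA labelled Lgr5-GFP, so its ratio is limited by the background and a difference in amount between the probes is not shown.

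Once dim probes were counted, 8 of 39 genes had disagreeing probes, among them Atr, Brca2, Fanca, Rad51b and Rad54l. In each of these 5 the probes of the disagreeing pairs that lay nearer the 5′ side did not pass the filter, with mean ratios of -0.39 to 0.10, and the most 3′ probe carried the lower ratio. Being at or near background, those 5′ probes have ratios limited by it, and a difference in amount along the gene is not shown. The Atr probes printed above averaged 0.038, -1.40 and -1.72 from the 5′ side. Over the 11 disagreeing pairs, the more 3′ probe had the larger ratio in size in 9, and the other pairs were those of Fancg with the probe at base 49. Of 38 repair genes with probes on 1 strand at several positions, both end probes passed the filter in 17, only the most 3′ one in 18, only the most 5′ one in 2, and neither in 1. Msh3 fell short of the rule, with kept probes at 0.03 and -0.60 from the 5′ side.

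**Figure D4:**
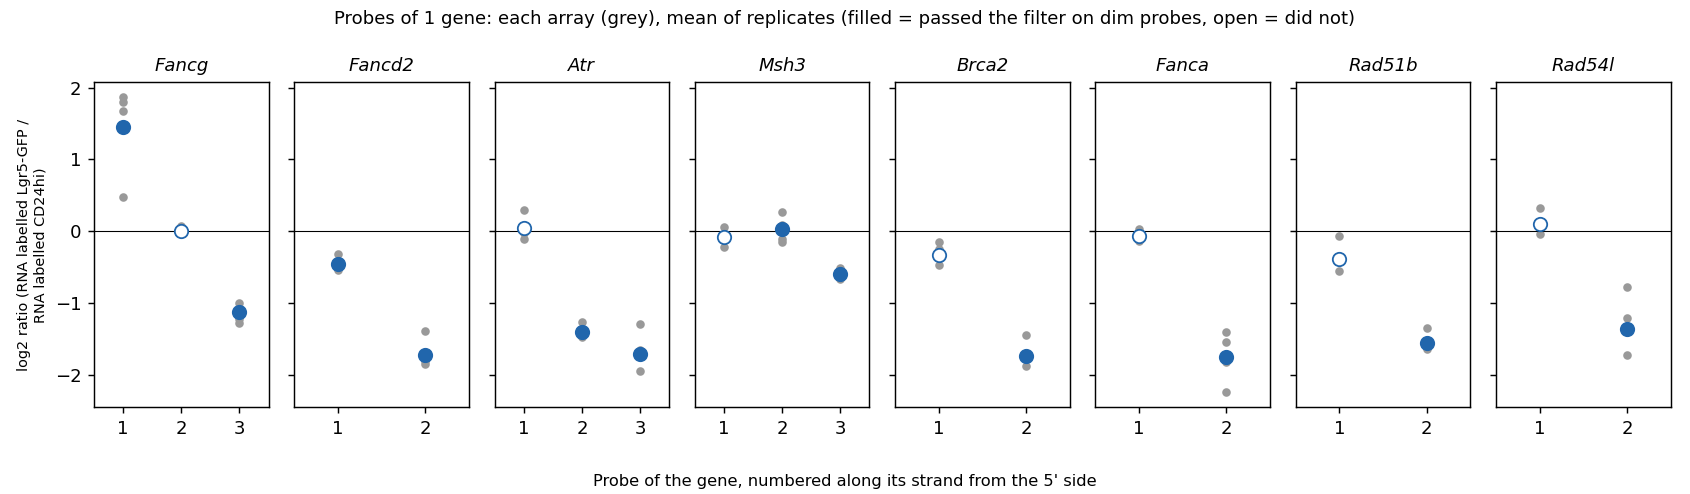
Panels give, for 8 repair genes, the log2 ratio (vertical axis) of each probe in order from the 5′ side (horizontal axis), with each array in grey and the mean of replicates as a large circle that is filled where the probe passed the filter on dim probes. Fancg runs from 1.45 down to -1.13, and in Atr, Brca2, Fanca and Rad54l the first probe is open and near 0.

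Promoter sequences were read for words known from promoters of cell cycle genes, since genes of several repair classes were lower together. RefSeq promoters (build GRCm38.p6, 250 bases before to 50 after the start) were matched by symbol for 55 of the 71 genes. A word of the E2F factors (TTTGGCGC, TTTCCCGC, TTTCGCGC or TTTGCCGC, either strand) was found in 9 of these 55 genes (16.4%), against 2.6% of all 27025 genes with a promoter, 4.51% of the tested genes with one and 6.78% of all genes called lower with one. It was in 6 of 25 repair genes called lower, namely Brca2, Chek2, Fancg (lower by its brightest kept probe only), Lig1, Msh3 and Msh6. Of 21 not called it was in 2, Rad51c and Xrcc6, and it was in none of the 3 called higher that had a promoter. Msh5, which was not tested, held it as well. By class it was in 2 of 3 mismatch repair genes, 2 of 9 of homologous recombination, 1 of 4 of end joining, 1 of 6 of base excision repair, 1 of 7 of the checkpoint, 1 of 9 of the Fanconi anaemia pathway and 0 of 7 of nucleotide excision repair. End joining, base excision repair, the checkpoint and the Fanconi anaemia pathway held 1 gene each with the word, so their shares differ only by class size. Whether the shares go with the class medians cannot be told from counts this small.

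The promoters of the 6 called genes show how the word sits, with its letters in capitals and bases counted from the start site. The first 4 run from base -250 to base -1.
Brca2, chr5:150522371-150522620, plus strand: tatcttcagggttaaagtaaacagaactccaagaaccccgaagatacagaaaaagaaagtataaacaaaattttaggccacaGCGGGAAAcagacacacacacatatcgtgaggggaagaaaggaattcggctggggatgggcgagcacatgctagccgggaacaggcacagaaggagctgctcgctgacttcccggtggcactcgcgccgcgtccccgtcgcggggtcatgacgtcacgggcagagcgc
Chek2, chr5:110839733-110839982, plus strand: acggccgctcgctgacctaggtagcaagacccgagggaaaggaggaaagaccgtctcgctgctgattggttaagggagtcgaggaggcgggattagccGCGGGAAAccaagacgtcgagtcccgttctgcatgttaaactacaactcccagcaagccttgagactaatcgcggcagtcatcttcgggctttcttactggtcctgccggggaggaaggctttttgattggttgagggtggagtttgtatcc
Fancg, chr4:43010302-43010551, minus strand: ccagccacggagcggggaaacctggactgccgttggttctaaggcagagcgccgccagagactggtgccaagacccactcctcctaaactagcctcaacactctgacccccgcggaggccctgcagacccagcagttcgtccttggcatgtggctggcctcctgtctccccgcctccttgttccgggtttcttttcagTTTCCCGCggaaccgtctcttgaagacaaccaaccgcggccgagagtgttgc
Msh3, chr13:92355004-92355253, minus strand: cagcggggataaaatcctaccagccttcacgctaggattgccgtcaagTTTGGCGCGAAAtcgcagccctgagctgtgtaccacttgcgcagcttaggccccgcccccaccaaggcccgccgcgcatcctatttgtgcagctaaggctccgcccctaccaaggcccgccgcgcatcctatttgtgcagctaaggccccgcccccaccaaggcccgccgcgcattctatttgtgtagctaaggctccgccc
Msh6, chr17:87974950-87975079, plus strand, base -100 to base 30: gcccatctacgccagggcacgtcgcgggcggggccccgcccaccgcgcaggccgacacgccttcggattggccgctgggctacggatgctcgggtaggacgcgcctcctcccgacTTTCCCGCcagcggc
Lig1, chr7:13278841-13278870, plus strand, base 16 to base 45: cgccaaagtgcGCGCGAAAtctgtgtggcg
In Msh3 a pair of words overlaps by 4 bases, starting at -202 and -198, so that the capitals hold both. The words of Brca2, Chek2 and Fancg start at -168, -152 and -52, and those of Msh6 and Lig1 at 16 and 27. The Lig1 word lies by 1 of 3 listed start sites.

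The other words were less marked. The CHR word TTTGAA was in 5 of the 55 genes (9.09%), against 20.2% of all genes with a promoter and 14.6% of those tested. CCAAT was in 30 (54.5%), against 41.1% and 42.9%. In this window the E2F words were thus held by a larger share of repair genes than of all genes, and the CHR word by a smaller one. These shares describe letters only, were not tested, and move with base composition.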

How the data were processed

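Expression was measured in RNA of sorted mouse colon cells on 4 two-colour Agilent arrays. Per the file headers, scans were read with Feature Extraction 10.5.1.1, and the deposited intensity values are the mean brightness of each spot and its median local background in each colour, not normalized. The deposited log10 ratio is the software's own processed ratio of red over green, per the file headers. The deposited series table holds log2 ratios of red over green, a scale found by comparing its columns with the arrays' own ratios (correlations of 0.923 to 0.986 across probes, column medians of -0.014 to 0.032), with a normalization method not given in the sources used here. Per the labels' protocols, total RNA was labelled with a linear amplification kit. Probe positions are in build mm9.

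The fit used limma 3.58.1 in R 4.3.3: normexp background correction (offset 50), with spots of non-uniform background left out first and other marked spots left out after, then loess within arrays. Of 43379 gene spots per array, 100 to 32648 were marked. Ratios of an array and its dye swap were averaged per replicate, and limma tested the 2 replicate ratios against 0 (2-sided, 1 residual degree of freedom, 4.44 prior, Benjamini-Hochberg over 14629 genes). Where the dye swap of replicate 1 had no value, replicate 1 was its first array alone and not dye-balanced. Each SD is that of the 2 replicate ratios and does not show the spread between the arrays of a replicate. Probes had to be well above background in at least 1 RNA on all arrays with a value, and a gene was its brightest kept probe. Only 4 arrays limit the precision, and no spot was saturated. Arrays turned to 1 direction correlated at 0.728 to 0.958 across genes, and the replicates at 0.91.

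Members, lists, tests and the background choice were set with earlier results of these data known, so the lists carry no test of their own. Replicate numbers pair each first array with its swap, per the labels. The 2 called genes of each list with the largest ratios were named, and every member except 4 that are not reported here, which stay in the counts and medians of their classes. Mus81, Usp1, Wdr48, Faap100 and Polk were named after their values were seen. Gene names followed RefSeq for 27041 spots, and 16338 kept the listed name. Of the alternatives tried, other background corrections, scalings, filters and left-out arrays are given with the limits.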

Additional observations from a re-analysis of the deposited data

How the results depend on the processing

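Direction was steadier than the calls. All 31 members called lower were still called lower with the processed signals, the series table, median centring, no filter, the replicate block, and without any array but the first of replicate 1. No background subtraction kept 30 of them and the mean of kept probes 29. With all arrays used, the medians of homologous recombination, the Fanconi anaemia pathway and mismatch repair were at -0.81 or below. With the background fitted on all spots, limma called 0 genes, the smallest adjusted p being 0.0771, while 5265 had an unadjusted p under 0.05. It gave 0 members lower and 0 higher and medians of -0.89, -0.84 and -0.82 for those classes. The cause was not tested beyond the spots with non-uniform background that this fit includes. Marked spots kept gave 3680 genes called (2269 of them lower), 28 members lower, 1 higher and a homologous recombination median of -0.94.

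Median centring called 40 members lower and 2 higher, with 29.1% of all calls higher against 46% and a median over all genes of -0.25 against -0.07. Over all 14629 genes it called 5341 lower, against 3772 in the main fit. Class medians were then -1.36 (Fanconi anaemia), -1.26 (mismatch repair), -0.23 (nucleotide excision), -0.67 (base excision) and -0.41 (end joining). The processed signals gave -1.99 (homologous recombination), -1.44 (Fanconi anaemia), -0.12 (nucleotide excision) and -0.53 (base excision). The series table gave -2.05 (homologous recombination), -1.37 (Fanconi anaemia), -1.17 (mismatch repair) and 2 members higher. The homologous recombination median was -1.001 with no background subtraction and -0.81 over the 8 genes above background in both RNAs, where 24 of 53 members were lower. The mean of all kept probes moved mismatch repair to -0.91 and Fancg to 0.16 from -1.13 (limma, adjusted p = 0.291). Probes disagreed in 8 genes with no filter on dim probes. The cause of these shifts was not tested.

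With 1 array left out, the genes called ranged from 981 (without the first array of replicate 1, which leaves 6012 genes) to 8450, members lower from 5 (of 22) to 35, and members higher from 1 to 6. Over left-out arrays and replicates the medians ranged from -1.33 to -0.20 (homologous recombination), -1.09 to -0.86 (mismatch repair), -0.43 to -0.22 (base excision) and -0.33 to 0.50 (end joining, 1 gene left at the upper end). Without the first array of replicate 1, Fancg reversed to 1.12, where another of its probes was the brightest kept, and Msh3 to 0.13. Over left-out arrays and replicates Fancg ranged from -1.26 to 1.12 and Msh3 from -0.64 to 0.13.

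The replicate block over 4 arrays, with an estimated correlation of -0.038 within replicates, called 8199 genes (4532 of them lower), 33 members lower and 6 higher. It added Rad52 and Xrcc3 as lower and Ercc3 and Parp4 as higher, and changed no other call of a member.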
